A study of Homo sapiens with 3 samples.

Results

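The genes described here are 8 large human genes, FHIT, WWOX, IMMP2L, LRP1B, MACROD2, PDE4D, RAD51B and CSMD1, most of which lie at common fragile sites. They were taken by name, not by a rule on measured values, though with earlier results of these data known. All 8 were found among the 19970 protein-coding genes of the gene table used (GRCh38.p14, that is, hg38). The mark measured was acetylation of lysine 130 on histone H2A, read by ChIP-seq (sequencing of DNA that an antibody pulls down with its chromatin) in UM-UC-3 cells, an established line from human bladder cancer. The smoke library came from cells given cigarette smoke media (10% for 3 days) and the air library from air-exposed cells of the same line, with 1 library each. The input library was not analysed here. The treatment text of the labels names smoke media on every sample, so the groups rest on the treatment label. Each library is represented by the authors' list of peaks, the regions where their peak caller found more immunoprecipitated fragments than background. The smoke list held 23975 peaks and the air list 27010. The peaks carry numbers that run up to 134206 in smoke and 230215 in air, so the lists hold only part of the numbered peaks, and a stretch without a listed peak may hold numbered peaks that were not listed. Read depth is unknown. Since each condition is 1 library, the spread between replicates cannot be given and no test was run. Intervals on counts are 95% exact Poisson intervals and intervals on shares are 95% exact binomial intervals, and both cover counting error only.

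Common fragile sites are chromosome regions that show gaps and breaks when DNA replication is slowed. Many coincide with very long genes that replicate late and have few replication origins, so that transcription and replication of the same stretch can meet. FHIT (the site FRA3B) and WWOX (the site FRA16D) are the textbook cases, and deletions within both genes are common in epithelial cancers, with FHIT loss also known from tissues exposed to tobacco smoke. Lysine 130 lies near the carboxy end of H2A, and the marked nucleosomes are what the peaks report. The sites themselves cannot be checked from peak lists, so the label rests on cytogenetic knowledge.

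The start regions of FHIT and WWOX are shown as examples. The RefSeq promoter table (GRCh38.p14) held 16 promoter windows for 6 of the 8 genes, each running from 250 bases before to 50 after a transcription start. LRP1B and CSMD1 had no entry. No listed peak of either library reached any of the 16 windows, so FHIT and WWOX do not differ from the other genes in this. The share of all windows reached by a peak was not counted. The 3 windows below are written 5′ to 3′ on the gene's strand with each CpG in capitals. They are the outermost FHIT start (chr3:61251403-61251702, minus strand), an inner FHIT start (chr3:60080860-60081159, minus strand) and the WWOX start (chr16:78099404-78099703, plus strand).
FHIT outermost start: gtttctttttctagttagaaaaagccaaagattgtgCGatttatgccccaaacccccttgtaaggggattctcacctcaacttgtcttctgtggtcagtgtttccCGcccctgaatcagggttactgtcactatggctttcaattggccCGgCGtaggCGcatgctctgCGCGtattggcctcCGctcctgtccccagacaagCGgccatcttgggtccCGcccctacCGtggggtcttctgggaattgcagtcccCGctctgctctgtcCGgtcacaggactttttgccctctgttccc
FHIT inner start: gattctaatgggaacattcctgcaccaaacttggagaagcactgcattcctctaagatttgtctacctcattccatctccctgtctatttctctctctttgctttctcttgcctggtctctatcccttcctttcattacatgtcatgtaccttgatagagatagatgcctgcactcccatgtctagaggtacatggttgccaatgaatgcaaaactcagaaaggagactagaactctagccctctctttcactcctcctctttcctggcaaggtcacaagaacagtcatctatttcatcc
WWOX start: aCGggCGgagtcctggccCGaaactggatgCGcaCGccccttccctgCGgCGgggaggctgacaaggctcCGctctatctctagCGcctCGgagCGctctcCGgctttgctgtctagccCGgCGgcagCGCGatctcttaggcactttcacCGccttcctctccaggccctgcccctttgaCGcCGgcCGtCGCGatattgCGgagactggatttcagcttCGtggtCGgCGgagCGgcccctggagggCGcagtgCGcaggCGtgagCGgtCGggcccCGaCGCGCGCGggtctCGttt
These windows held 13, 0 and 38 CpG and had a G+C content of 55.0%, 44.0% and 69.0%. Over all 35116 windows of the table the median was 14 CpG and a G+C content of 58.7%. The letters GGGCGG (read on both strands) occurred in 5 of the 16 windows, the outermost FHIT start and the WWOX start among them, and in 45.0% of all windows. The smoke peak nearest to any of the 16 starts lay 2.50 kb inside FHIT (61248542 to 61248953, fold 3.76). The nearest air peak lay 3.54 kb from an inner PDE4D start (59003442 to 59003591, fold 3.48). At WWOX the nearest smoke peak was 181 kb from the start, outside the gene, and the nearest air peak 40.3 kb from it, inside the gene.

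All 8 genes held peaks of both libraries. Among all protein-coding genes 23.6% held a smoke peak, 25% an air peak and 34.3% a peak of either. Of 314 protein-coding genes of 500 kb or more, 96.8% held a smoke peak and 98.7% an air peak, so this is the rule among genes of such length. Together the genes span 11.95 Mb and held 112 smoke peaks (92.2 to 134.8) and 100 air peaks (81.4 to 121.6). Per Mb of gene span this came to 9.37 smoke peaks (7.72 to 11.3) and 8.37 air peaks (6.81 to 10.2). The other 306 genes of 500 kb or more held 9.83 smoke peaks (9.44 to 10.2) and 11.4 air peaks (10.999 to 11.8) per Mb when pooled. In smoke the density was 0.954 times that of the other genes (0.782 to 1.15). In air it was 0.733 times (0.594 to 0.895), an interval below 1. The intervals do not cover the differences from gene to gene, which were wide: among the other large genes the middle 50% ran from 5.46 to 13.4 smoke peaks per Mb and from 6.65 to 15.5 air peaks per Mb. In smoke 3 of the 8 genes lay inside that range, 3 below it and 2 above it, and in air 3 lay inside, 4 below and 1 above.

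The order of the genes was led by IMMP2L and MACROD2 in both libraries. By smoke peaks per Mb of span it ran IMMP2L (15.6), MACROD2 (15.6), CSMD1 (11.2), RAD51B (10.4), LRP1B (8.42), FHIT (5.32), PDE4D (3.86) and WWOX (3.59). By air peaks per Mb it ran IMMP2L (21.1), MACROD2 (13.6), CSMD1 (10.7), LRP1B (7.37), RAD51B (4.63), PDE4D (3.86), WWOX (3.59) and FHIT (1.99). The intervals of all neighbours in both orders overlapped. Intervals that did not overlap were those of MACROD2 in smoke against FHIT, PDE4D and WWOX, and of IMMP2L in smoke against PDE4D. In air, IMMP2L lay apart from the 5 lowest genes, MACROD2 from PDE4D and FHIT, and CSMD1 from FHIT.

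**Figure D1:**
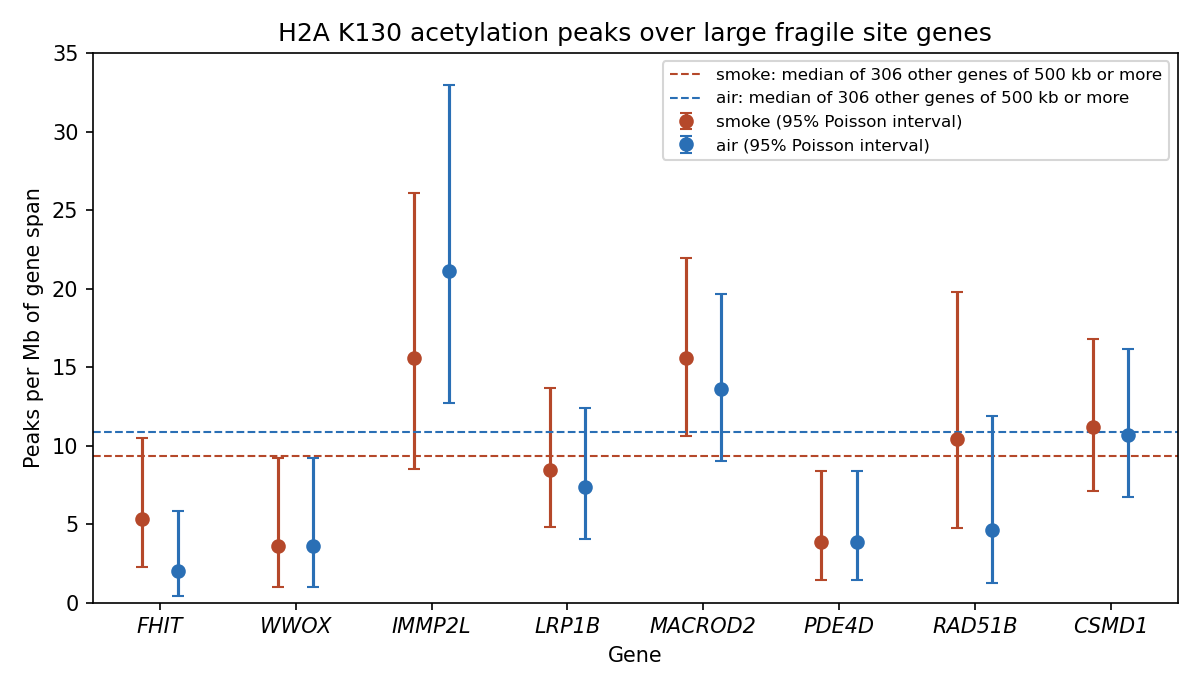
Peaks per Mb of gene span (vertical axis) for each of the 8 genes, with smoke in red and air in blue, points at the measured density and bars for the 95% Poisson interval. Dashed lines mark the medians of 306 other genes of 500 kb or more, 9.33 in smoke and 10.9 in air, and IMMP2L and MACROD2 stand above both lines while FHIT, WWOX, PDE4D and LRP1B stand below.

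Smoke peaks made up 52.8% of the 212 peaks over these genes (45.9 to 59.7), against 46.3% over the other large genes and 47.0% of all listed peaks. The interval holds both of those shares. Among peaks with a −log10 q of 2 or more, smoke made up 44.2% of those over the 8 genes (30.5 to 58.7), 37.2% of those over the other large genes and 38.01% of those in the whole lists. More smoke than air peaks were found over 5 genes, against 32.5% of the 314 large genes, and more air than smoke peaks over 1 gene, IMMP2L, against 53.5%. WWOX and PDE4D had equal numbers. The most one-sided genes were FHIT, with 8 smoke and 3 air peaks (72.7% smoke, 39.0 to 94.0), and RAD51B, with 9 and 4 (69.2%, 38.6 to 90.9). For all 8 genes the interval held the 47.0% of the whole lists.

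**Figure D2:**
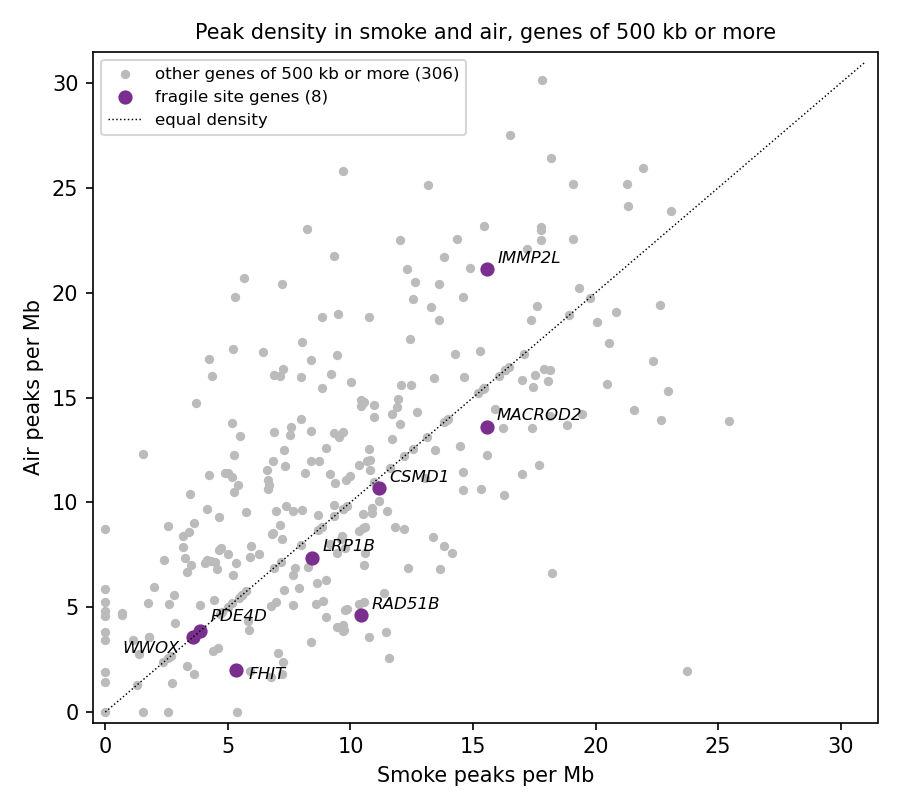
Smoke peaks per Mb (horizontal axis) against air peaks per Mb (vertical axis) for 306 other protein-coding genes of 500 kb or more (grey) and the 8 genes (purple, labelled), with a dotted line of equal density. FHIT (5.32 and 1.99) and RAD51B (10.4 and 4.63) lie below the line and IMMP2L (15.6 and 21.1) above it.

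Pooled over the 8 genes, peaks were unevenly placed, with fewer in the central parts than their share of the length. Each span was cut into 10 equal parts, counted from the start of the gene on its strand, or from the lower coordinate for LRP1B and CSMD1. Parts 4 to 7, which make up 40% of the length, held 28 of 112 smoke peaks (25%, 17.3 to 34.1) and 30 of 100 air peaks (30%, 21.2 to 39.98). Not every gene followed this. In smoke only RAD51B (4 of 9) had more than 40% of its peaks there, and in air only LRP1B (7 of 14) and RAD51B (2 of 4). The air interval reaches past 40% when any 1 of 6 genes is left out, FHIT, WWOX, IMMP2L, MACROD2, PDE4D or CSMD1, and the smoke interval stays below 40% whichever gene is left out. In the other 306 large genes the same parts held 39.7% of smoke peaks (37.7 to 41.6) and 41.2% of air peaks (39.4 to 43.0). The emptiest, named with the counts in view, were parts 6 and 7, with 8 smoke and 8 air peaks. These were 7.55% of all peaks in 20% of the length. That low count depends on the direction in which LRP1B is read. LRP1B had no peak in parts 6 and 7, but 3 and 3 smoke peaks and 3 and 4 air peaks in parts 4 and 5. Read from the other end, those peaks would fall in parts 6 and 7. Counts of single parts also depend on the direction chosen for LRP1B and CSMD1, while parts 4 to 7 together do not. As counted, smoke was highest in part 1, with 21 peaks, and air in part 9, with 15. Part 5 differed between the libraries, with 8 smoke and 13 air peaks. Of 19 other genes known from common fragile sites, a list described further below, the central parts held 37.1% of smoke peaks (31.2 to 43.3) and 42.0% of air peaks (36.4 to 47.8).

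**Figure D3:**
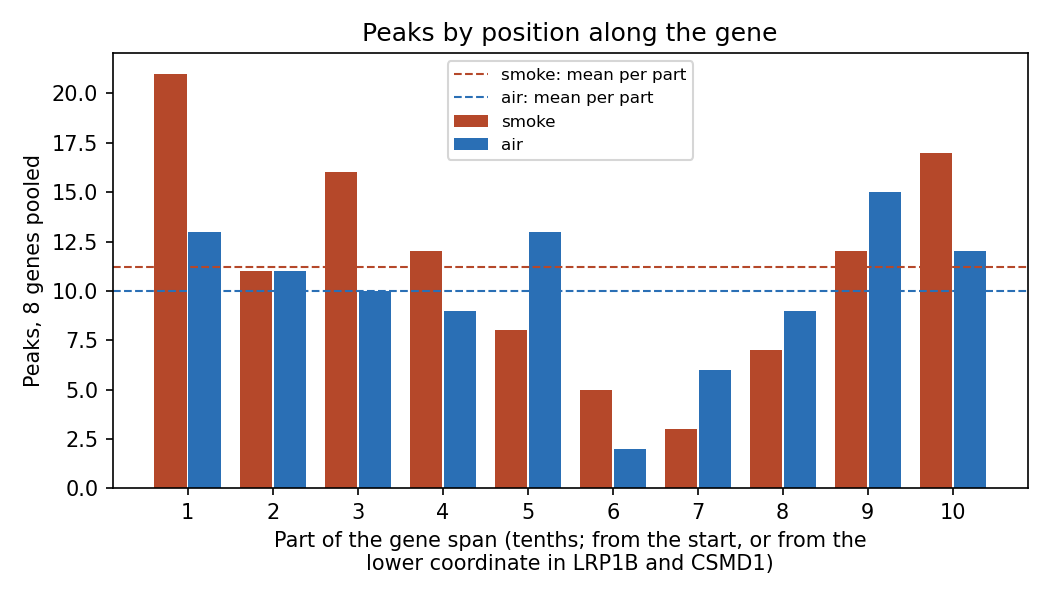
Number of smoke (red) and air (blue) peaks in each of 10 equal parts of the span, the 8 genes pooled, with dashed lines at the mean per part. Parts 6 and 7 hold 8 peaks of each library in all, and part 1 has the highest smoke bar with 21. LRP1B and CSMD1 are counted from the lower coordinate, and the counts of single parts, and of parts 6 and 7 together, depend on that direction.

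FHIT encodes a hydrolase of diadenosine triphosphate and acts as a tumour suppressor. It lies on chromosome 3 from 59747277 to 61251452 on the minus strand. Over its 1.504 Mb the smoke library had 8 peaks (5.32 per Mb, 2.30 to 10.5) and the air library 3 (1.99 per Mb, 0.411 to 5.83). Of the other large genes, 23.9% had a lower smoke density and 4.25% a lower air density. The gene was emptier than its surroundings: with both libraries together it held 7.31 peaks per Mb, against 21.0 per Mb in the 500 kb on either side, a ratio of 0.348 (0.152 to 0.756). This was the only one of the 8 genes whose interval for that ratio stayed below 1.

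The peaks of FHIT lay on either side of a long empty stretch. Between 481.96 kb and 1252 kb from the start, from base 59999357 to base 60769491, neither library had a peak, a stretch of 770 kb or 51.2% of the gene. The inner FHIT start shown above lies inside this stretch. A smoke peak stood at each border, at 60769492 to 60769662 and at 59999172 to 59999356, both with a fold of 4.30. In air alone the empty stretch reached 1231 kb and contained 3 smoke peaks. On the promoter side of the gene there were 5 smoke peaks from 2.77 to 481.9 kb from the start, and 1 air peak at 142.5 kb. By −log10 q, the measure used for strength here, the strongest air peak, at 59788137 to 59788334 (−log10 q 3.10, fold 5.39), lay 1463 kb from the start, near the far end. The strongest smoke peak, at 59860241 to 59860478, reached a −log10 q of 2.11 (fold 4.84), tied with the peak at 61191685 to 61192173.

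WWOX encodes an oxidoreductase with WW domains, also a tumour suppressor, on chromosome 16 from 78099654 to 79212667 on the plus strand. It held 4 smoke and 4 air peaks over 1.11 Mb, 3.59 per Mb in each library (0.979 to 9.20). Only 12.7% of the other large genes had a lower smoke density and 9.15% a lower air density. From 340.5 to 949.3 kb from the start (bases 78440186 to 79048951) neither library had a peak, 609 kb or 54.7% of the gene. Of the 8 peaks, 5 lay before this stretch and 3 beyond it. The stretch begins at the strongest smoke peak, 78440006 to 78440185 (fold 4.84, −log10 q 2.11). It ends at an air peak, 79048952 to 79049140 (fold 4.06, −log10 q 1.502), 1 of 3 air peaks in WWOX with that value. At each side a smoke and an air peak came near each other, at gaps of 4188 and 4755 bp. WWOX held 0.553 times the peak density of its 500 kb flanks (0.199 to 1.44), an interval that includes 1.

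Long stretches without peaks were also seen in LRP1B, and the 3 genes stood high in that respect among large genes. The longest stretch of a gene with no peak of either library had a median of 157 kb in the other 306 large genes (middle 50% from 112 to 227 kb). FHIT ranked 2 of 314, WWOX 5 and LRP1B 9. With only peaks at a −log10 q of 1.3 or more, their stretches had the same lengths but ranked 3, 16 and 27, against a median of 246 kb in the other large genes, and PDE4D, with 741 kb, ranked 6. Rank 1 was DMD, the dystrophin gene and another fragile site gene, with 1002 kb. A stretch of 500 kb or more, a limit set after these values were seen, was present in 3 of the 8 genes and in 3.82% of the 314 large genes (4 of the 8 and 10.2% at that stricter threshold). Of the 69 genes of 1 Mb or more it was present in 5.80%, which were DMD and these 3, while 6 of the 8 genes were that long. A gene with few peaks has long gaps, so the stretch was also set against the mean spacing of each gene's own peaks. The ceiling of this ratio rises with the number of peaks, so its ranks still depend on peak number. By that measure LRP1B (8.85 times the mean spacing) ranked 3, IMMP2L (7.63 times) 4, MACROD2 (6.84 times) 8 and FHIT (6.14 times) 10, against a median of 3.18 times in the other large genes. WWOX (4.92 times) then ranked 36, CSMD1 (4.39 times) 63, PDE4D (2.83 times) 204 and RAD51B (2.79 times) 210. Whether the cells carry these stretches at full copy number was not tested.

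**Figure D4:**
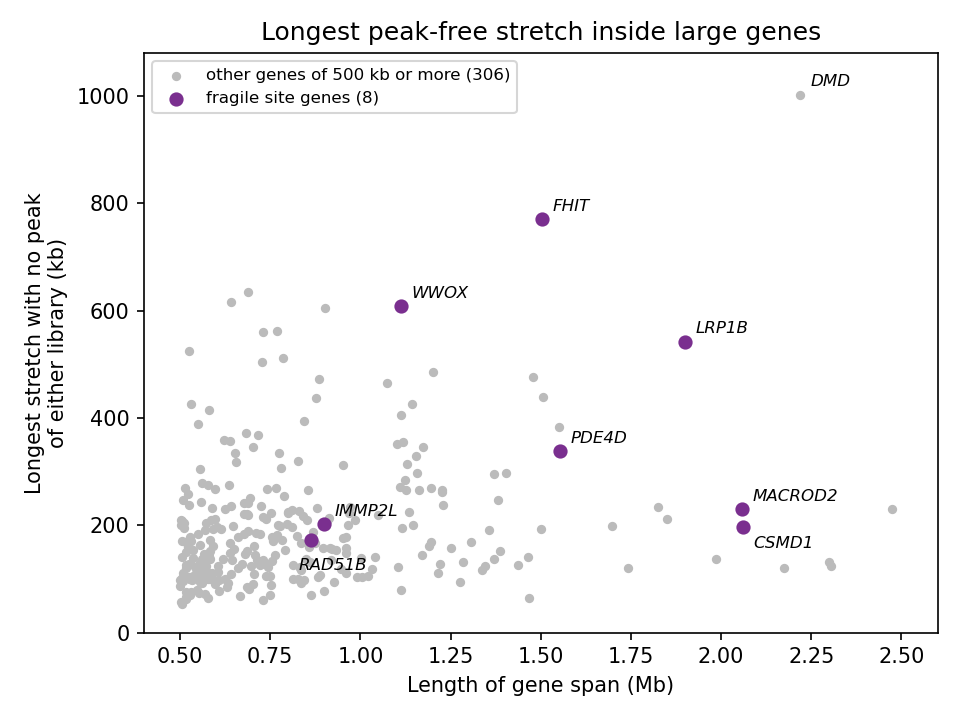
Longest stretch with no peak of either library in kb (vertical axis) against the length of the gene span in Mb (horizontal axis) for 306 other genes of 500 kb or more (grey) and the 8 genes (purple, labelled), with DMD labelled in grey. FHIT (770 kb), WWOX (609 kb) and LRP1B (542 kb) lie high above the median of 157 kb, while CSMD1 (197 kb) does not, although it is 2.06 Mb long.

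IMMP2L encodes a subunit of the peptidase of the inner mitochondrial membrane and lies on chromosome 7 from 110662644 to 111562492 on the minus strand. It was the densest gene of the 8, with 14 smoke peaks (15.6 per Mb, 8.51 to 26.1) and 19 air peaks (21.1 per Mb, 12.7 to 32.97) over 0.900 Mb. A lower density was found in 83.3% of the other large genes in smoke and 92.5% in air. The strongest member peaks of both libraries lay here. In smoke this was 111274874 to 111275151 (−log10 q 4.02, fold 6.45), at 287 kb from the start. In air it was 111442223 to 111442596 (−log10 q 3.82, fold 6.38), at 120.01 kb from the start, the middle of 3 air peaks between 119.1 and 121.0 kb. Both libraries were empty over 202 kb, from 395 to 597 kb from the start. Beyond 597 kb the libraries differed in number, with 4 smoke and 10 air peaks. LRRN3, a neuronal leucine-rich repeat gene nested in IMMP2L, held no peak. The density of the gene was 1.18 times that of its 500 kb flanks (0.702 to 2.00).

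MACROD2 encodes a hydrolase that removes single ADP-ribose units from proteins, and lies on chromosome 20 from 13995516 to 16053197 on the plus strand. It had the most peaks of the 8 genes, 32 in smoke (15.6 per Mb, 10.6 to 22.0) and 28 in air (13.6 per Mb, 9.04 to 19.7). Smoke peaks gathered in the first 20% of the gene, parts 1 and 2, with 15 of 32, while air had 5 of 28 there. The strongest smoke peak lay at 14029755 to 14030018, 34.4 kb from the start (−log10 q 3.85, fold 5.78). The widest member peak, 996 bp, lay 97.3 kb from the start, at 14092306 to 14093301. In air the peak of highest −log10 q was at 15613008 to 15613287 (fold 4.76, −log10 q 2.92), 1618 kb from the start. Of its smoke peaks, 23 of 32 had a q of 0.05 or lower, and of its air peaks 20 of 28. FLRT3, a nested gene for an adhesion protein, held 1 smoke and no air peak.

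The fold values of MACROD2 were also less repetitive than those of the other genes. In both lists most folds repeat exactly: values that occur 100 or more times made up 81.2% of smoke and 76.1% of air folds. In MACROD2 only 5 of 32 smoke peaks and 8 of 28 air peaks had such a value (15.6% and 28.6%). In WWOX, PDE4D and CSMD1 all peaks of both libraries did. Chromosome 20 as a whole had the lowest share of such values of the 23 chromosomes in both lists, 27.0% in smoke and 31.47% in air. What part this has in the MACROD2 count was not tested. This measure was chosen after the values were seen.

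PDE4D encodes a phosphodiesterase that degrades cyclic AMP, on chromosome 5 from 58969038 to 60522128 on the minus strand. It was sparse in both libraries, with 6 smoke and 6 air peaks over 1.55 Mb (3.86 per Mb, 1.42 to 8.41, in each). A lower density was found in 14.1% of the other large genes in smoke and 10.1% in air. The first 277 kb from the start held no peak. The pair next to that empty region was the closest in PDE4D: a smoke peak at 60243691 to 60243878 (fold 3.76) and an air peak at 60244707 to 60245102 (fold 4.06), 828 bp apart. The strongest peaks were far apart, the smoke one at 59503955 to 59504173 (fold 4.30, −log10 q 1.68) and the air one at 59115086 to 59115342 (fold 5.22, −log10 q 2.49). Of the 8 annotated starts in the promoter table, 2 lay in its longest empty stretch, 338 kb from 59504174 to 59841829.

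RAD51B encodes a protein that takes part in homologous recombination. It lies on chromosome 14 from 67819779 to 68683096 on the plus strand, the shortest of the 8 at 0.863 Mb. It had 9 smoke peaks (10.4 per Mb, 4.77 to 19.8) and 4 air peaks (4.63 per Mb, 1.26 to 11.9). The air peaks all lay within 371.7 kb of the start, and the rest of the gene, 492 kb, had no air peak but 3 smoke peaks. The last of these, at 68511069 to 68511236, was the strongest smoke peak (fold 4.47, −log10 q 2.11), and the 172 kb behind it were empty in both libraries. The strongest air peak lay at 67859848 to 67860046 (fold 4.49, −log10 q 2.02), 40.2 kb from the start. No smoke peak came nearer to an air peak than 13594 bp.

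LRP1B encodes a large endocytic receptor of the LDL receptor family and lies on chromosome 2 from 140231423 to 142131016. Over 1.90 Mb it held 16 smoke peaks (8.42 per Mb, 4.81 to 13.7) and 14 air peaks (7.37 per Mb, 4.03 to 12.4), with 44.4% of the other large genes lower in smoke and 30.7% lower in air. The longest stretch without an air peak, 910 kb from 141173364 to 142083079, held 8 smoke peaks. Parts 4 to 7 of 10 held 6 smoke and 7 air peaks. In the lowest 30% of the span there were 2 smoke and 5 air peaks. Both libraries were empty from 141178918 to 141721035, 542 kb. That stretch starts at the strongest smoke peak, 141178551 to 141178917 (fold 4.84, −log10 q 2.11), while the strongest air peak lay near the upper end, at 142111924 to 142112255 (fold 5.21, −log10 q 2.57).

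CSMD1 encodes a large membrane protein with CUB and sushi domains and lies on chromosome 8 from 2935361 to 4994914. At 2.06 Mb it is the longest of the 8, and its longest empty stretch was the smallest share of any of the 8 spans when all listed peaks were used. At a −log10 q of 1.3 or more that place went to MACROD2 (12.8%), with CSMD1 at 18.3%. Its 23 smoke peaks (11.2 per Mb, 7.08 to 16.8) and 22 air peaks (10.7 per Mb, 6.69 to 16.2) left a longest empty stretch of 197 kb, 9.55% of the span. Along the gene the libraries differed most in parts 3 and 9, named here with the counts in view, while parts 1 and 8 held equal numbers, 4 and 2 of each. Part 3 of 10 held 5 smoke peaks and no air peak, and part 9 held 6 air peaks and 2 smoke peaks. The strongest air peak, at 3852881 to 3853234 (fold 5.80, −log10 q 3.10), lay 57523 bp from the nearest smoke peak. The strongest smoke peak, at 3524712 to 3524866 (fold 4.84, −log10 q 2.11), lay 123034 bp from the nearest air peak.

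**Figure D5:**
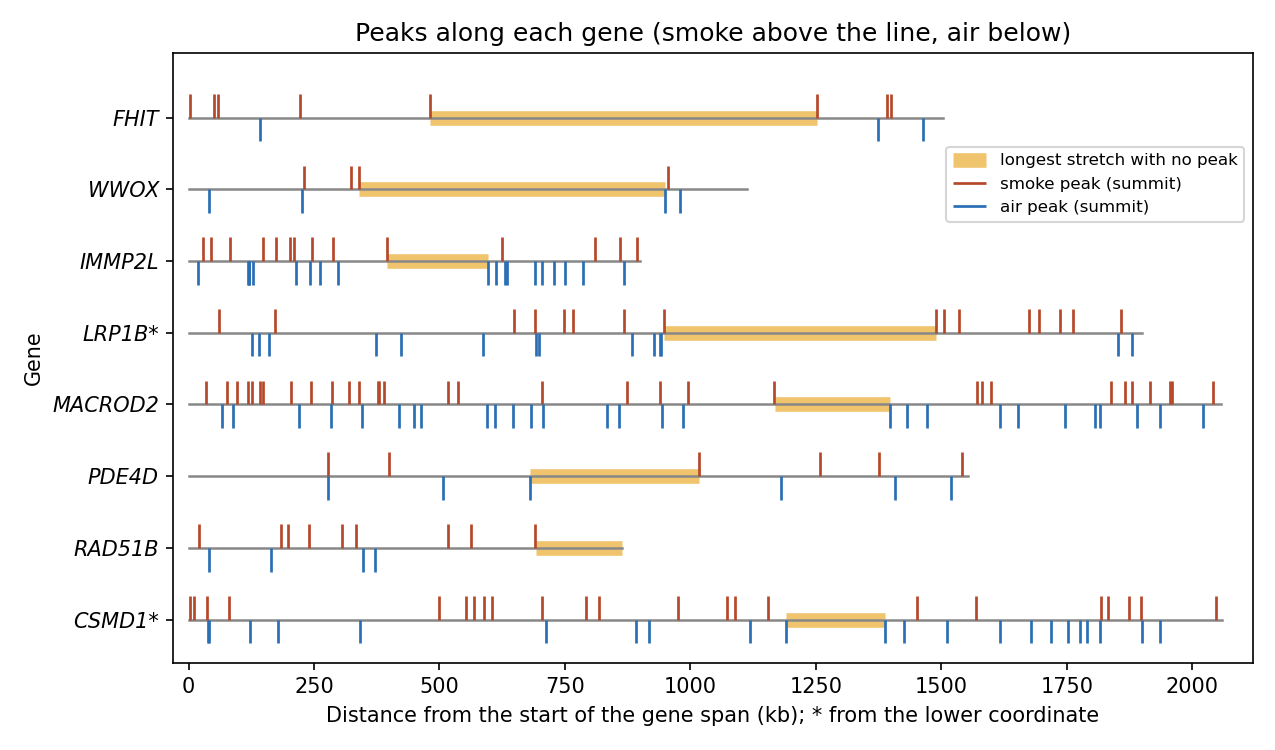
Position of each peak summit along the 8 genes, in kb from the start of the span (from the lower coordinate where a gene is starred), smoke as red ticks above the line and air as blue ticks below, with the longest stretch empty in both libraries in yellow. FHIT and WWOX are empty over 51.2% and 54.7% of their length, and MACROD2 carries 15 smoke and 5 air ticks in its first 20%.

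No smoke peak overlapped an air peak in any of the 8 genes. By a rule of thumb, 3 divided by the number of peaks, a count of 0 allows up to 2.68% of the 112 smoke and 3.00% of the 100 air peaks. That limit is not the exact binomial interval used for other shares. In the whole lists 1.58% of smoke and 1.41% of air peaks overlapped the other library. An overlapping pair was present in 10.5% of the 314 large genes, so a count of none among 8 is not apart from that share. Peaks within 1 kb of each other formed 3 pairs, 1 each in CSMD1, PDE4D and LRP1B, and 28% of the large genes had such a pair. They were 2.68% of the smoke peaks (0.556 to 7.63) and 3.00% of the air peaks (0.623 to 8.52), against 4.44% and 3.91% of the whole lists. The closest was in CSMD1, where a smoke peak at 2972578 to 2972727 (fold 3.76) and an air peak at 2973124 to 2973391 (fold 4.17) were 396 bp apart. In LRP1B the gap was 989 bp, with the smoke peak (fold 3.76) at 140921764 to 140921927 and the air peak (fold 2.77) at 140922917 to 140923119. In the other genes the nearest pair was 1137 bp apart in MACROD2, 2492 bp in IMMP2L, 4188 bp in WWOX, 13594 bp in RAD51B and 17623 bp in FHIT. All 3 smoke peaks of the pairs within 1 kb had a −log10 q of 1.24, weaker than a q of 0.05.

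In strength and width the peaks of these genes lay near the medians of their lists. The median deposited fold was 3.76 in smoke (middle 50% from 3.32 to 4.30), against 3.76 over the whole list, and 3.87 in air (3.48 to 4.44), against 3.93. A q of 0.05 or lower was reached by 50% of the smoke peaks (40.4 to 59.6; list 44.4%) and 60% of the air peaks (49.7 to 69.7; list 60.4%). Median widths were 222.5 bp in smoke and 285.5 bp in air, against 225 and 277 bp in the lists. Peaks with a −log10 q of 2 or more numbered 23 in smoke, of which MACROD2 held 12 and IMMP2L 5, and in smoke none of the other 6 genes had a peak above 2.11. In air there were 29, of which MACROD2 held 9, IMMP2L 7, CSMD1 6, LRP1B 4 and FHIT, PDE4D and RAD51B 1 each. At a fold of 5 or more MACROD2 held 7 of 8 smoke peaks and none of 10 air peaks.

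Density inside the genes did not stand apart from their surroundings when the 8 were pooled. With flanks of 500 kb on each side, the ratio of gene to flank density was 0.9997 in smoke (0.740 to 1.36) and 0.847 in air (0.625 to 1.15). In smoke 4 of 8 genes and in air 6 of 8 were less dense than their flanks. Nested genes, 6 to 15 in each, of which LRRN3 and FLRT3 are the protein-coding ones, covered between 5.19% (WWOX) and 18.7% (IMMP2L) of the spans. They held 4 smoke and 3 air peaks in MACROD2 and at most 3 of either library in the others.

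Another 19 genes known from common fragile sites were listed from textbook knowledge and all matched. They held 10.2 smoke peaks per Mb (9.02 to 11.6) and 12.3 air peaks per Mb (10.9 to 13.7) over 25.02 Mb, so their air density lay above the 8.37 of the 8 genes. Of the 19, 12 had more air than smoke peaks, 5 more smoke than air and 2 equal numbers. The densest were NBEA, with 17.8 smoke and 30.1 air peaks per Mb, CNTNAP2, with 17.8 and 23.0015, and DPYD, with 17.8 and 22.5. NBEA encodes a protein of vesicle traffic in neurons, CNTNAP2 a neurexin-like adhesion protein and DPYD the enzyme that begins pyrimidine breakdown. Among the sparsest were DMD, with 1.80 smoke and 3.60 air peaks per Mb, and CCSER1, with 0.677 and 4.74. CCSER1 had 1 smoke and 7 air peaks, where FHIT had 8 and 3. Among the other 306 large genes the densities ran from 0 to 25.5 smoke peaks and from 0 to 30.1 air peaks per Mb, and NBEA holds the upper end in air.

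Genes that act on stalled replication forks were counted as well, 46 in all, from the ATR kinase pathway, the Fanconi pathway and fork repair. Peaks of both libraries lay over 10, of smoke alone over 8, of air alone over 8 and of neither over 20. The 26 with a peak are 56.5%, against 34.3% of all protein-coding genes, and the median gene of the list spans 56.2 kb. That comparison takes no account of gene length. POLQ, the polymerase of end joining by microhomology, had 5 smoke and 2 air peaks, and ATR, the kinase that signals stalled forks, had 3 of each. REV3L, a translesion polymerase subunit, had 2 smoke and 4 air peaks. FANCM and WRN, both fork-remodelling enzymes, had 3 smoke and 1 air peak each, and the nuclease gene MRE11 had 2 of each.

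Other large genes were compared with the 8 genes pooled, by distance on the log2 scale of peaks per Mb plus 1. The most alike in both densities were ALK, DAB1, CELF2, SEMA5A and RYR2. Single genes of the 8 ran more widely, from 3.59 to 15.6 smoke and from 1.99 to 21.1 air peaks per Mb. ALK, a receptor tyrosine kinase gene, had 9.60 smoke and 8.23 air peaks per Mb, and DAB1, an adaptor in reelin signalling and itself in the list of 19, had 9.67 and 8.38. CELF2 had 9.15 and 8.01, SEMA5A 9.78 and 7.83 and RYR2 8.84 and 8.84. The likeness rests on 1 library of each kind.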

How the data were processed

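The submitters' processing notes name Bowtie2, MACS and MACS2 and the builds hg38 and mm10, with no versions, settings or roles, and the filter that kept part of the numbered peaks (17.9% of the highest number in smoke, 11.7% in air) is not given in the sources used here. Each immunoprecipitated library came with 1 deposited peak list of 10 columns, called per library. Both list names give the library minus the same further sample, so a background common to smoke and air is likely. The deposited score is the whole part of 10 times the authors' −log10 p. The authors' peak caller also gave the deposited fold (an enrichment ratio over background), −log10 p, −log10 q and summit offset, which were used only within a list.

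Peaks were counted over gene spans of GRCh38.p14 when they overlapped by at least 1 bp, with Python 3.11.15, pandas 2.3.3 and scipy 1.17.1. Pairs were near at a gap of up to 1 kb. Counting, pairing and stretch finding were tested on simulated data and recovered 200 of 200 planted overlaps for smoke against air, in 312 genes. Strand came from the RefSeq promoter table. Base composition under peaks was planned but not computed, for want of a genome sequence. Peaks on the lists carry no read totals. The members and lists were chosen with earlier results of these data known. Named were the 8 genes, the 3 densest and 3 sparsest of 19 other fragile site genes, the 5 most alike large genes, up to 6 fork genes with 3 or more peaks, and each gene's strongest peaks and nearest pair. One gene that this rule selects is not reported here. Any further gene named, DMD among them for its stretch, was picked with its values in view. Alternatives covered placement by summit, stricter thresholds, equal list sizes, wider spans, gap and overlap limits, comparison genes, members left out and flank size.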

Additional observations from a re-analysis of the deposited data

How the results depend on the processing

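No paired analysis was possible because each group has 1 library, and for the same reason no library could be left out. Leaving out each gene in turn for the central part was added after the data were examined. Stricter thresholds lower every density by construction, since fewer peaks enter: with −log10 q at 1.3 or more the 8 genes held 4.69 smoke and 5.02 air peaks per Mb, at 2 they held 1.92 and 2.43, and with a fold from 5 upward they held 0.669 and 0.837. The smoke share of 52.8% became 48.3%, 44.2% and 44.4% at these thresholds, while that of the whole lists went from 47.0% to 39.5%, 38.01% and 33.9% (shares of the lists added after the data were examined). The central part held 0.625 times the mean smoke density and 0.750 times the mean air density of the span, from 0.573 to 0.719 and from 0.669 to 0.833 without 1 gene (upper bounds 0.815 to 0.999 in smoke and 0.934 to 1.12 in air, above 1 in 6 of 8 air cases), 0.536 and 0.583 with −log10 q at 1.3 or more. The density relative to other large genes ran from 0.823 to 1.04 in smoke and from 0.638 to 0.814 in air without 1 gene. The median of genes gave 0.551 in air, against 0.733 pooled. Near pairs rose to 11.6% of smoke and 14.0% of air peaks at 5 kb, and fell to 0 in both with −log10 q at 1.3 or more. No overlap appeared under any of the definitions tried. The empty stretches of FHIT, WWOX and LRP1B kept their length with −log10 q at 1.3 or more, while that of PDE4D grew from 338 to 741 kb, that of IMMP2L from 202 to 328 kb and that of CSMD1 from 197 to 376 kb. Unknown depth and 1 library per group limit every comparison of smoke with air.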
